A study of Rattus norvegicus with 12 samples.

Results

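The imprinted miR-379/miR-410 cluster is a dense run of microRNA (miRNA) genes on rat chromosome 6, and its mature products were read here from small RNA libraries of hippocampi taken from 12 adult male Sprague Dawley rats. Of the 753 mature miRNAs listed for each rat, 61 belonged to the cluster. They were taken by name, as all rows of miR-379, miR-411, miR-299, miR-380, miR-323, miR-758, miR-329, miR-494, miR-495, miR-543, miR-541, miR-376, miR-300, miR-381, miR-487, miR-539, miR-382, miR-134, miR-668, miR-485, miR-154, miR-496, miR-377, miR-409, miR-412, miR-369, miR-410 and miR-1193, with any letter and arm. The rule uses names only. The animals were P70 to P80. One group of 8 was injected i.p. with 4 g/kg ethanol, the other group of 4 with vehicle, and tissue was taken 3 h later, to ask how a single high dose of ethanol shifts miRNA levels. The labels name the right hippocampus, whereas the paper describes dorsal hippocampus from 8 rats per group, and only these 4 vehicle rats were analysed here. Each library came from 1 rat, so the spread between libraries holds both animal and technical variation.

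miRNAs of this cluster are cut from long noncoding transcripts of the Dlk1-Meg3 domain, which are made from the maternally inherited chromosome only. Each hairpin can yield a mature strand from its 5′ arm (5p) and one from its 3′ arm (3p), and the mature strand finds its mRNA targets mainly through its seed, bases 2 to 8. The cluster is best known from brain and placenta. In neurons its transcription is driven by activity through Mef2, and miR-134, which restrains dendritic spine growth by way of Limk1, is its best studied product.

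All 61 names were found in RefSeq's table of mature rat miRNAs, and all 61 lay between Mir379 and Mir410 in the order of the assembly GRCr8. The processing notes of the submitters name the older build rn5, so this assembly served for names, sequences and gene order only. RefSeq listed 41 miRNA genes in this span, of which 32 gave rise to a member. The sequences ranged from 17 to 25 bases and held 55 different seeds, so the cluster is a collection of many target specificities rather than a family of copies. The 16 members with a mean of at least 100 CPM (counts scaled to library size) had 16 different seeds. The 5 most abundant members, the 3 that passed the unadjusted test for ethanol and both arms of miR-409a are written here 5′ to 3′ as RefSeq gives them, with the seed in capitals.
miR-541-5p: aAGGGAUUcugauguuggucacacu
miR-410-3p: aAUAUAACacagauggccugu
miR-300-3p: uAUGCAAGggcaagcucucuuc
miR-487b-3p: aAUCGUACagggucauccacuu
miR-379-5p: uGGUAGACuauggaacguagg
miR-134-5p: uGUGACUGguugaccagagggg
miR-380-5p: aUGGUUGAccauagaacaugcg
miR-154-5p: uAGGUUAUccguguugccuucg
miR-409a-5p: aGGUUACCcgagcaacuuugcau
miR-409a-3p: aAUGUUGCucggugaacccc

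Within the cluster 5 seeds were shared, by 11 members in all, of which miR-376b-5p alone reached 100 CPM. GGUUGUC was common to miR-410-5p, miR-494-5p and miR-496-5p, UGGAUAU to miR-376b-5p and miR-376c-5p, and AUACAAG to miR-381-3p and miR-539-3p. AUGUGGG was carried by miR-299a-3p and miR-299b-3p, and GGUUUAC by miR-299a-5p and miR-299b-5p. The miR-376 family is known from brain for the editing of an adenosine in its seed, which the deposited lists do not separate from the unedited form. Its 3p strands differed within the seed, so that miR-376a-3p, miR-376b-3p and miR-376c-3p carried 3 seeds.
miR-376a-3p: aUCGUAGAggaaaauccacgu
miR-376b-3p: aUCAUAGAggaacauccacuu
miR-376c-3p: aACAUAGAggaaauuucacgu
Counted from 1 at the 5′ end, miR-376a-3p differed from miR-376b-3p by G4A, A13C and G20U. Of the 3 strands, miR-376b-3p was at 83.8 CPM, miR-376a-3p at 62.4 CPM and miR-376c-3p at 13.7 CPM on average.

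Library totals ran from 2243414 to 4917930 counts in vehicle rats and from 1960702 to 3598775 in ethanol rats, so that 3 counts, taken as the floor, equalled between 0.610 and 1.53 CPM. Each pair of the 12 libraries differed by far more than sampling noise, with a smallest chi-square of 42.0 per degree of freedom over 66 pairs. Summed neuronal marker miRNAs (miR-124-3p, miR-9a-5p, miR-128-3p and miR-138-5p) were read at 33082 to 38208 CPM in vehicle and 30039 to 37626 CPM in ethanol libraries. Choroid plexus markers (miR-204-5p, miR-211-5p and miR-448-3p) varied more, from 28978 to 50267 CPM in vehicle and from 16516 to 70880 CPM in ethanol rats. Of 4 markers chosen for other organs, the liver miRNA miR-122-5p never exceeded 2.46 CPM. The others were higher, with miR-375-3p at 25.5 to 228 CPM, miR-7b at 1015 to 2623 CPM and miR-192-5p at 3176 to 4198 CPM. Where their reads came from was not tested.

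The cluster took a small and steady part of the hippocampal miRNA pool. It held 1.50% of the counts in vehicle rat 9, 1.72% in rat 10, 1.32% in rat 19 and 1.53% in rat 20. Over the 8 ethanol rats its lowest share was 1.31% (rat 8), its median 1.49% and its highest 1.66% (rat 3). The ranges of the groups lay over each other almost completely, with means of 1.52% ± 0.165 (SD, n = 4) and 1.49% ± 0.131 (SD, n = 8). Fewer cells that make these miRNAs and less of them per cell cannot be told apart in whole tissue. The neighbour miRNAs, 23 further rows of the same imprinted domain outside that span, took 3.88% ± 0.429 (SD, n = 4) in vehicle and 4.01% ± 0.420 (SD, n = 8) in ethanol rats. They were led by miR-127-3p at 25463 CPM, miR-434-3p at 6092 CPM and miR-136-3p at 3695 CPM. The neighbours exceeded the cluster by a factor of 2.56 ± 0.0917 (SD, n = 4) in vehicle and 2.70 ± 0.313 (SD, n = 8) in ethanol rats. This excess lay in miR-127-3p. Without that strand the neighbours took 1.41% ± 0.156 (SD, n = 4) in vehicle and 1.42% ± 0.165 (SD, n = 8) in ethanol rats.

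**Figure D1:**
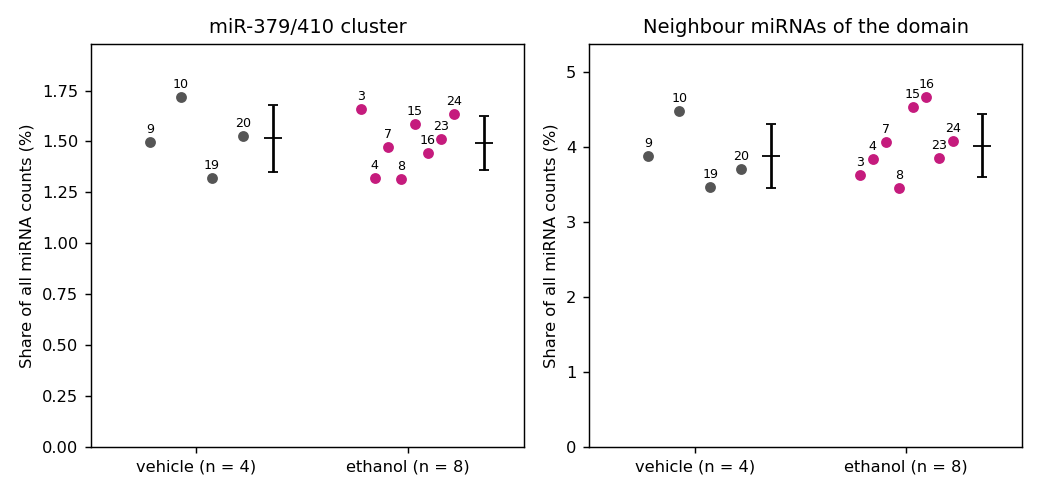
Share of all miRNA counts (%, vertical axis) taken by the miR-379/miR-410 cluster (left) and by the neighbour miRNAs of the domain (right), with 1 point per rat, labelled with its number, and the mean and SD of each group beside the points. Vehicle rats lay between 1.32% and 1.72% and ethanol rats between 1.31% and 1.66% for the cluster.

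Within the cluster a few strands dominated. Of the 61 members, 46 were retained for testing, which required fewer than 10 libraries with under 10 reads. Of the 15 others, 12 had some reads and 3 (miR-381-3p, miR-299b-3p and miR-409b) had 0 reads in each library, where the floor was at most 1.53 CPM. The retained means spanned a factor of 1318. Only 3 members exceeded 1000 CPM, 16 had at least 100 CPM, 20 lay between 10 and 100 CPM, and 10 were under 10 CPM.

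miR-541-5p, which has been studied in neurite outgrowth, was the most abundant member at 3745 CPM and ranked 39 in the whole list. Its level was 3417, 4294, 3272 and 3498 CPM in vehicle rats 9, 10, 19 and 20, and ran from 3352 through a median of 3779 to 4308 CPM in ethanol rats. It supplied 24.9% of the cluster's reads. miR-410-3p, at the far end of the cluster, followed at 3357 CPM and 22.5% of the reads, with vehicle values of 3467, 3714, 3162 and 3347 CPM and ethanol values from 2784 to 3753 CPM. miR-300-3p was the third at 2498 CPM and 16.7%, with 2464, 2681, 2287 and 2460 CPM in vehicle and 2294 to 2750 CPM in ethanol rats. These 3 strands, each from another hairpin, made up 64.1% of the cluster, and the 10 most abundant made up 87.0%.

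The next members were miR-487b-3p at 922 CPM, miR-379-5p at 701 CPM, miR-411-5p at 553 CPM, miR-409a-3p at 509 CPM, miR-323-3p at 285 CPM, miR-376b-5p at 233 CPM and miR-409a-5p at 224 CPM. The order of the leading members held from rat to rat: miR-541-5p exceeded miR-410-3p in 11 of 12 libraries, and miR-410-3p exceeded miR-300-3p, and miR-300-3p exceeded miR-487b-3p, in 12 of 12. The steps from miR-487b-3p to miR-379-5p and from miR-409a-3p to miR-323-3p also held in 12 of 12, those from miR-379-5p to miR-411-5p and from miR-380-3p to miR-134-5p in 11 of 12, and that from miR-323-3p to miR-376b-5p in 10 of 12. Some neighbours in the order were not separated: miR-411-5p lay above miR-409a-3p in only 8 of 12 libraries, miR-376b-5p above miR-409a-5p in 5 of 12, and miR-409a-5p above miR-380-3p in 7 of 12.

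**Figure D2:**
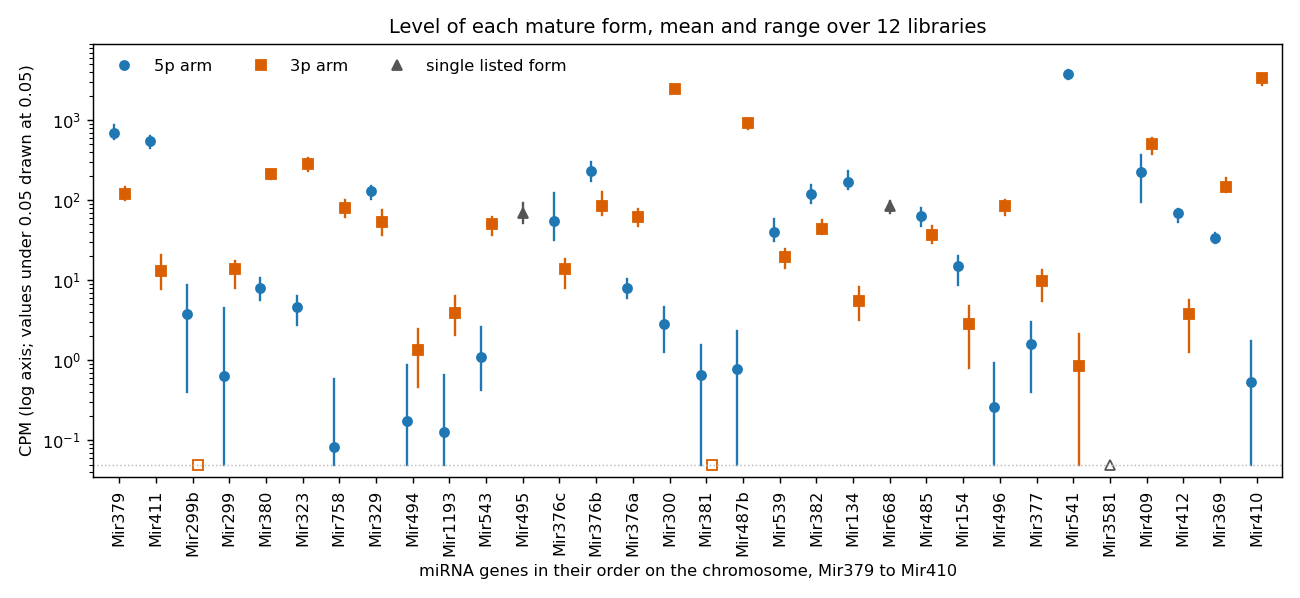
Mean level of each mature form in CPM (logarithmic vertical axis, values under 0.05 drawn at 0.05), with bars from the lowest to the highest of 12 libraries, for the miRNA genes with a member in their order from Mir379 to Mir410. Circles are 5p strands, squares 3p strands, triangles forms listed without an arm, and open symbols had 0 reads; the highest levels were at Mir300, Mir541 and Mir410, with low ones at Mir381 and Mir3581 (the gene of miR-409b) between them.

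High and low members lay side by side on the chromosome. By the names that reads were given, Mir300 had 2501 CPM over its 2 strands and the adjacent Mir381 had 0.657 CPM, followed by Mir487b at 923 CPM. The 3p strands of Mir300 and Mir381 are nearly identical, so the yield of each of these 2 hairpins is uncertain. Mir494, whose product the study's text names, gave 1.53 CPM, with 1 to 9 reads of miR-494-3p and 0 to 3 reads of miR-494-5p in a library. CPM count reads, and how evenly library making captured strands of different sequence was not tested.

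The contrast at Mir300 and Mir381 coincided with close likeness of sequence. Over the 18 bases that RefSeq lists for miR-381-3p, it differed from miR-300-3p at 1 position within the seed, G4A counted from the 5′ end of miR-300-3p.
miR-300-3p: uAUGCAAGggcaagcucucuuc
miR-381-3p: uAUACAAGggcaagcucu
miR-300-3p had 4734 to 11561 reads in a library, whole numbers in all 12, and miR-381-3p had 0, so no read was divided in fractions between both names. Whole numbers would also result if all reads close to both names were given to miR-300-3p, which was not tested. The 0 is that of the deposited estimates, which did not list the strand at any level, while the other strand, miR-381-5p, was read 0 to 3 times.

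Other near-identical pairs did share reads. The strands miR-376b-5p and miR-376c-5p differed over 21 bases by G19U alone, and both had fractional estimates in all 12 libraries, whereas their sum was whole to within 0.01 reads in 11 of 12. miR-379-3p and miR-411-3p, aligned with an offset of 1 base over 20 bases, differed by U11C, and their sum was whole in 12 of 12. The sum of miR-299a-5p and miR-299b-5p, which differed by U1C and come from opposite strands of the same place, was also whole in 12 of 12.
miR-376b-5p: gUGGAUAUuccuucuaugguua
miR-376c-5p: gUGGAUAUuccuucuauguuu
miR-379-3p: cUAUGUAAcaugguccacuaac
miR-411-3p: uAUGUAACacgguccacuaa
miR-299a-5p: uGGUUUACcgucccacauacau
miR-299b-5p: cGGUUUACcgucccacauac
The split between the names varied. miR-376c-5p took from 12.9% to 32.0% of its pair, highest in ethanol rat 3, and miR-411-3p from 6.70% to 15.1%, highest in vehicle rat 20. miR-299b-5p took 99.1% in 10 libraries, 33.7% in vehicle rat 20 and 6.33% in ethanol rat 8, on sums of 7 to 32 reads. Single levels of these 6 strands are therefore uncertain, and the sums are the firmer values. miR-379-5p also had fractional estimates, in 7 libraries, and the name that shared its reads was not traced. miR-376b-5p and miR-376c-5p together were at 290 ± 44.3 CPM (SD, n = 4) in vehicle and 288 ± 47.8 CPM (SD, n = 8) in ethanol rats, while miR-379-3p and miR-411-3p together were at 133 ± 11.4 and 131 ± 15.8 CPM.

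Precision followed the level of each member. The coefficient of variation over 12 libraries had a median of 11.3% for the 16 members of at least 100 CPM, 15.8% for the 20 between 10 and 100 CPM, and 33.7% for the 10 below. Across all retained miRNAs at the same levels it was 11.3%, 17.6% and 34.1%. The median standard error of a log2 fold change rose from 0.11 through 0.14 to 0.28 over these levels, so that only larger shifts could be seen among the low members. At the threshold, miR-300-5p (2.89 CPM, 3 to 22 reads) and miR-154-3p (2.84 CPM, 2 to 14 reads) were just retained, and miR-377-5p (1.60 CPM, 1 to 10 reads) and miR-494-3p (1.35 CPM, 1 to 9 reads) were not.

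Few members differed between ethanol and vehicle, and by small amounts. Of the 46 retained members, 1 was lower and 2 were higher at an unadjusted p under 0.05 by edgeR's quasi-likelihood test, against 10 lower (2.38%) and 7 higher (1.67%), or 17 in either direction (4.05%), among all 420 retained miRNAs. After Benjamini-Hochberg adjustment of the edgeR p over all 420, 0 members and 0 miRNAs (0%) passed 0.05, with a lowest adjusted p of 0.971. The median log2 fold change of members was -0.02, as it was over all retained miRNAs, and its sign turned with other filters on low counts (0.0120 with a stricter one). Single members ranged from -0.43 to 0.44, with 26 values below 0 and 20 above, and 29 of 46 lay within 0.1 of 0. The groups lay fully apart in CPM for 0 members, against 0.238% of all retained miRNAs. An exact permutation test, two-sided over all ways to draw 4 of 12 libraries, gave an unadjusted p under 0.05 to 3 members, which were the same 3, and to 2.62% of all; the smallest p it allows is 0.00202.

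miR-134-5p was one of the higher members. Its level was 139, 160, 148 and 142 CPM in vehicle rats 9, 10, 19 and 20, and ran from 146 CPM (rat 7) through a median of 180 CPM to 235 CPM (rat 3) in ethanol rats. Of the 8 ethanol rats, 7 lay above the vehicle range and 1 lay within it. The log2 fold change was 0.30 (standard error 0.11), and its p of 0.0196 by edgeR's quasi-likelihood test did not survive adjustment (adjusted p = 0.971). The unadjusted p was also above 0.05 without vehicle rat 9 and with library totals in place of TMM scaling. Its 3p strand was read 8 to 25 times a library, at 4.78 ± 0.643 CPM (SD, n = 4) and 5.89 ± 2.01 CPM (SD, n = 8), and did not pass the test.

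miR-380-5p, the minor strand of its hairpin, was the other. It was at 5.61, 6.81, 6.10 and 7.23 CPM in the vehicle rats, and from 5.62 CPM (rat 16) through a median of 9.01 CPM to 10.8 CPM (rat 23) in ethanol rats. Again 7 of 8 ethanol rats lay above all vehicle rats, on only 16 to 34 reads a library. By exact permutation, two-sided, its p was 0.0202, at a log2 fold change of 0.44 (standard error 0.17). Without vehicle rat 9 or 19 its edgeR p was above 0.05. Its abundant partner miR-380-3p was at 213 ± 11.1 CPM (SD, n = 4) and 211 ± 16.9 CPM (SD, n = 8), with a log2 fold change of -0.01 and a standard error of 0.08.

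miR-154-5p was the lower member. It was at 16.8, 20.4, 17.7 and 17.7 CPM in the vehicle rats, and from 8.79 CPM (rat 15) through a median of 12.7 CPM to 20.4 CPM (rat 4) in ethanol rats. Of the 8 ethanol rats 7 lay below all vehicle rats, and rat 4 lay just under the highest vehicle rat. By exact permutation, two-sided, its p was 0.0384, at a log2 fold change of -0.43 (standard error 0.18), on 22 to 84 reads a library. The call rested on single libraries: without any 1 of vehicle rats 10, 19 and 20 or ethanol rats 3, 7 and 8 the unadjusted p passed 0.05, up to 0.0829 by edgeR. The study selected miR-154-5p and miR-485-3p, both as suppressed, on a larger set of rats that holds these samples, so neither is independent evidence. miR-485-3p was at 47.6, 35.3, 42.3 and 31.1 CPM in vehicle and 29.7 to 43.7 CPM in ethanol rats, with a log2 fold change of -0.15 and a standard error of 0.13, and its groups overlapped.

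**Figure D3:**
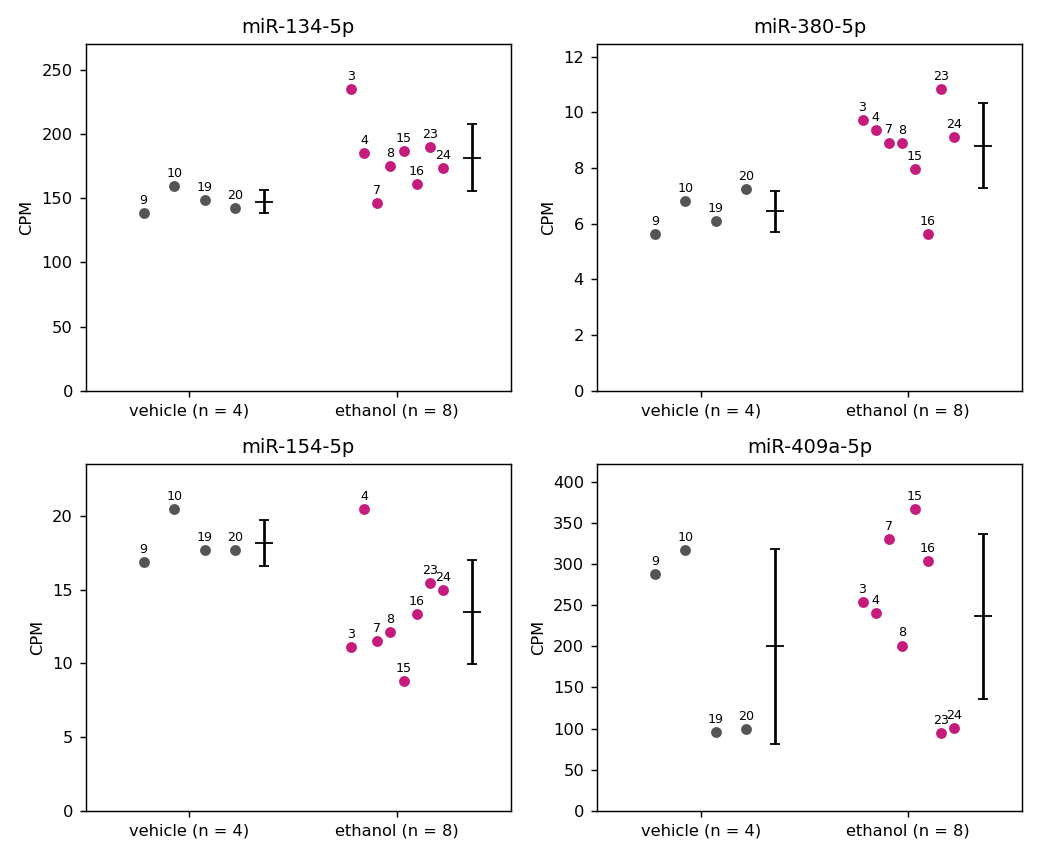
Level in CPM (vertical axes from 0) of miR-134-5p, miR-380-5p, miR-154-5p and miR-409a-5p, with 1 point per rat, labelled with its number, and the mean and SD of each group beside the points. In miR-134-5p and miR-380-5p 7 of 8 ethanol rats lay above the vehicle rats, in miR-154-5p 7 of 8 lay below, and miR-409a-5p was near 100 CPM in rats 19, 20, 23 and 24 of both groups.

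The 10 most abundant strands gave small estimates, most of them narrow. The log2 fold change, with its standard error, was 0.07 (0.09) for miR-541-5p, -0.04 (0.08) for miR-410-3p, 0.02 (0.07) for miR-300-3p and -0.04 (0.08) for miR-487b-3p. It was 0.08 (0.10) for miR-379-5p, -0.06 (0.10) for miR-411-5p, -0.06 (0.11) for miR-323-3p and -0.11 (0.13) for miR-376b-5p. For miR-409a-3p it was near 0 (standard error 0.12), and its sign depended on the normalization. The exception was miR-409a-5p, at 0.24 with a wide standard error of 0.42. Each of these strands overlapped between groups, and none passed the unadjusted test. The next smallest p among members belonged to miR-382-3p, at 38.0, 39.6, 41.4 and 41.5 CPM in vehicle and 39.3 to 56.9 CPM in ethanol rats (log2 fold change 0.17, standard error 0.11). miR-376c-5p had an estimate of 0.43 and a standard error of 0.31, with 124 CPM in ethanol rat 3 against 76.6 CPM in the next rat, the same library in which it took its largest share of the reads divided with miR-376b-5p.

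**Figure D4:**
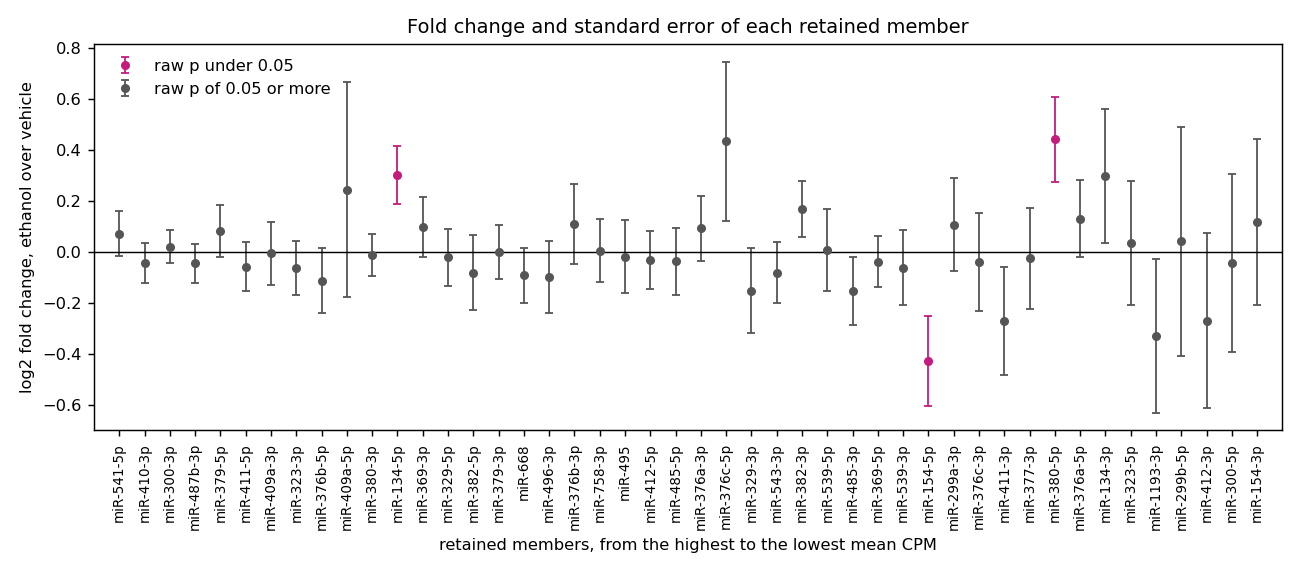
Log2 fold change, ethanol over vehicle (vertical axis), with its standard error as bars, for the 46 retained members ordered from the highest to the lowest mean CPM. Of all members 3 passed an unadjusted p of 0.05 (coloured), 29 lay within 0.1 of 0, and the bars widened towards the low members on the right.

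Among the 22 retained neighbours of the domain, 0 were lower and 1 was higher at an unadjusted p under 0.05 by edgeR, with a median log2 fold change of 0.04. This was miR-770-5p, with a log2 fold change of 0.39 and a standard error of 0.17. It did not pass by exact permutation (two-sided p = 0.0525), and its edgeR p was 0.971 after adjustment. The leading neighbour, miR-127-3p, was at 24190 ± 2384 CPM (SD, n = 4) in vehicle and 26099 ± 4857 CPM (SD, n = 8) in ethanol rats, which gave 0.11 (standard error 0.13) on the log2 scale.

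The higher arm of a hairpin was the same from rat to rat, while the size of the ratio varied. In 17 hairpins with both strands retained, 11 gave more 5p and 6 more 3p, and the same arm was the higher one in all 12 libraries in 17 of 17, against 118 of 122 hairpins over the whole list. The within-group SD of the log2 ratio had a median of 0.37 over these 17 hairpins and 0.29 over all 122. Hairpins with a strand under the filter are not among the 17, such as miR-541 (7073 to 16441 reads of 5p and 0 to 7 of 3p in a library) and miR-410 (0 to 5 reads of 5p and 6543 to 15730 of 3p). Among the 17, the strongest 5p preference was that of miR-411, with a mean log2 ratio of 5p to 3p of 5.42, then miR-134 (4.95), miR-412 (4.25), miR-379 (2.56) and miR-154 (2.39). The strongest 3p preference among them was that of miR-300 (-9.77), then miR-323 (-5.93), miR-380 (-4.72), miR-376a (-2.94) and miR-369 (-2.12). In these terms miR-376a favoured 3p, while miR-376b (1.48) and miR-376c (1.95) favoured 5p. The ratios of miR-411, miR-376b and miR-376c each rest on 1 strand whose reads were divided with another name. In that of miR-379 the 3p strand was so divided, and the 5p strand had fractional estimates in 7 of 12 libraries.

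By exact permutation, two-sided, 1 of 17 ratios differed between the groups at an unadjusted p under 0.05, against 1.64% of all 122. The log2 ratio of miR-380 was -5.15, -5.01, -5.03 and -4.89 in vehicle rats and ran from -5.13 (rat 16) to -4.06 (rat 23) in ethanol rats. Only rat 16 fell among the vehicle values. The difference was 0.45 (p = 0.0222, exact permutation; 0.965 after Benjamini-Hochberg adjustment over 122), and it shares its 5p reads with the change of miR-380-5p given above.

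The ratio of miR-409a was among the most variable. Its 5p strand was at 288 and 317 CPM in vehicle rats 9 and 10 but at 96.1 and 99.8 CPM in vehicle rats 19 and 20. In ethanol rats it was at 254, 240, 330, 201, 366 and 303 CPM in rats 3, 4, 7, 8, 15 and 16, and at 95.2 and 101 CPM in rats 23 and 24. Both groups thus held libraries near 100 CPM and libraries of 201 CPM or more, with none between. Its coefficient of variation of 45.7% compares with 13.4% for miR-409a-3p, which had 598 and 595 CPM in ethanol rats 23 and 24, its highest values. The log2 ratio of 5p to 3p ran from -2.65 to -0.62, and its within-group SD of 0.89 ranked 3 among 122 hairpins. The low libraries are those of the animals numbered 19 and above. The labels do not say in which sequencing set a library was run, and the part of such a set in these values was not tested.

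The miRNAs whose pattern was most like that of miR-409a-5p lay outside the cluster. With group means removed, Pearson's r over 12 libraries was 0.97 for miR-99a-5p, 0.94 for miR-99b-5p, 0.92 for miR-100-5p and 0.90 for miR-501-3p, against a median of -0.06 over all other retained miRNAs. In the low libraries, vehicle rats 19 and 20 and ethanol rats 23 and 24, miR-501-3p was at 11.8, 9.15, 7.88 and 6.17 CPM, against 20.8 CPM or more in the others. The highest r with a member was 0.79, for miR-485-5p. These strands are printed because they share ACCCG, in capitals, a run that was noticed after the likeness was seen.
miR-409a-5p: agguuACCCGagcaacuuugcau
miR-99b-5p: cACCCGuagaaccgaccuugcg
miR-100-5p: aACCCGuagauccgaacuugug
miR-501-3p: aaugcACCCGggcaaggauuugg
RefSeq gave no mature sequence under the name miR-99a-5p, so it was neither printed nor searched for the run. ACCCG, searched on the mature strand as written, was in 8 of the 389 retained miRNAs with a RefSeq sequence (2.06%). Among the 4 others, r with miR-409a-5p was 0.41 for the member miR-1193-3p, 0.08 for miR-1247-5p, 0.01 for miR-3546 and 0.00 for miR-342-3p. The pattern was also followed without the run, by miR-125b-5p (r 0.88), miR-24-3p (0.83) and miR-125a-5p (0.82), so the run and the pattern coincided only in part.

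Members were positively correlated with each other across rats, by modest amounts. With group means removed, the 1035 pairs of members had a median Pearson's r of 0.18 (Spearman's rho 0.18) over 12 libraries, against -0.00 for the 69751 pairs of non-members. The median for members was 0.30 when library totals alone set the scale. The 120 pairs of members of at least 100 CPM had a median of 0.34, against -0.00 for non-members at that level. All pairs share the same 12 libraries and their scaling, so these are descriptions. Pairs of a member and a neighbour of the domain had a median of 0.21, and pairs of neighbours 0.27. The closest member pairs were miR-376b-5p with miR-329-5p (0.94), miR-376b-5p with miR-300-3p (0.91) and miR-379-5p with miR-376b-3p (0.89). The level of miR-376b-5p is uncertain because its reads were divided with miR-376c-5p, and miR-379-5p had fractional estimates in 7 libraries. miR-154-5p stood apart, with a median r of -0.20 with the other members, as did miR-300-5p (-0.19) and miR-376a-5p (-0.16).

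**Figure D5:**
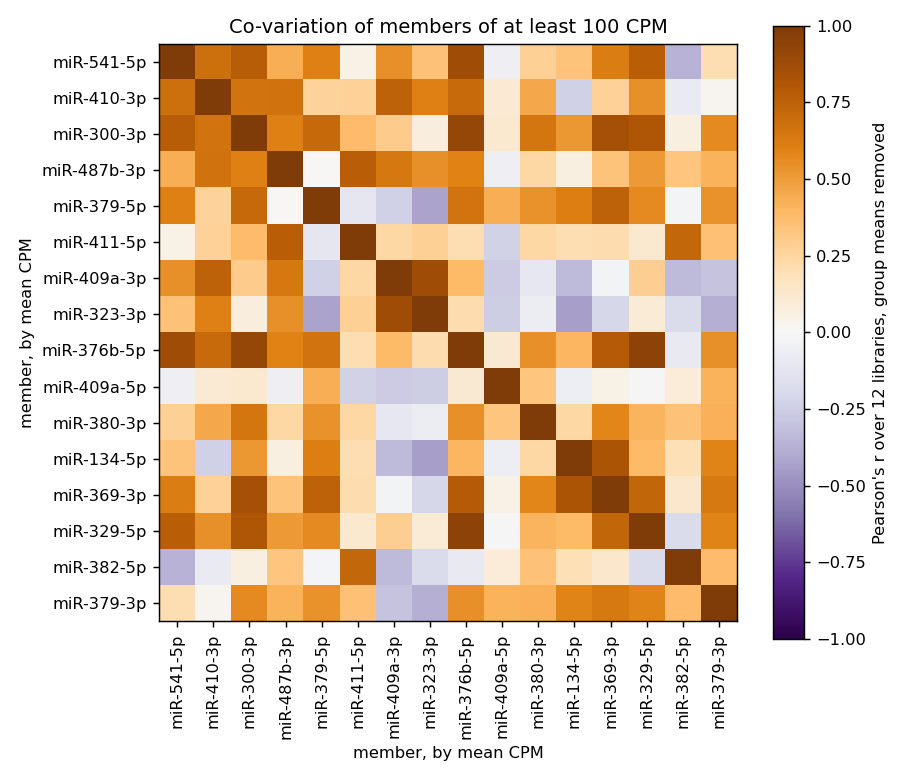
Pearson's r over 12 libraries, group means removed, for each pair of the 16 members of at least 100 CPM, in order of mean CPM on both axes, from -1 (purple) to 1 (brown). miR-376b-5p, miR-300-3p, miR-329-5p and miR-541-5p form brown rows, while miR-409a-5p and miR-382-5p are pale against most members.

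The summed cluster ranged from 13300 CPM (ethanol rat 4) to 16426 CPM (vehicle rat 10). The non-members most like it were miR-434-5p (Pearson's r 0.85, Spearman's rho 0.85) and miR-434-3p (0.80 and 0.80) and miR-540-3p (0.84 and 0.83) of the same domain, with the neural miR-9a-5p (0.83 and 0.76) and miR-1843b-5p (0.81 and 0.78). It rose with the 4 summed neuronal markers (0.85 and 0.75), of which miR-9a-5p holds most reads, and was lower where the 3 choroid plexus markers (-0.70 and -0.80) and the 5 muscle markers (-0.55 and -0.64) were higher. None of the 4, 3 and 5 markers was at 0 in every library, although miR-1-3p and miR-206-3p did not exceed 9.73 and 4.85 CPM. Values for summed markers of microglia (-0.43 and -0.41), vessels (-0.37 and -0.31), blood (-0.35 and -0.34) and oligodendrocytes (-0.20 and -0.18) were also negative. The summed markers chosen for other organs gave positive values (0.44 and 0.30). The part of these tissues and cell types in the cluster's level was not tested.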

How the data were processed

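Small RNA of 12 rat hippocampi was sequenced. The authors made and deposited, for each rat, an estimated count of reads per mature miRNA, 753 in all, not scaled to library size. The submitters' processing notes name Partek, cutadapt and rn5, and the miRNA annotation is not given in the sources used here. Between 80.2% and 83.4% of values per library were whole, and counts were rounded. Removing miRNAs with under 10 reads in at least 10 libraries kept 420. R 4.3.3 was used with edgeR 4.0.16 (TMM, quasi-likelihood test, Benjamini-Hochberg over 420), limma 3.58.1 and DESeq2 1.42.0; CPM are scaled by TMM-adjusted library totals. Arm ratios added 0.5 reads, and correlations used log2 CPM with a prior count of 2. Floors cover counting error only, since reads carry no molecular identifiers. The fit was tested on simulated data. Members and lists were chosen with earlier results of these data known. Named were the 10 most abundant members, the 5 smallest p, the extreme arm ratios, strands named by the study, those nearest the filter, shared seeds, the miR-376 family, 3 neighbours, and 5 non-members most like the cluster; miR-409a-5p's likenesses, near-identical pairs, co-varying pairs and miR-770-5p were named after values were seen. Alternative normalizations, filters, tests, rounding and left-out libraries were run.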

Additional observations from a re-analysis of the deposited data

Results flagged for a closer look

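In 68 groups of 4 or 8 libraries, over 34 measures, 3 held a library far from the others by Dixon's criterion, and chance gives about 3.40. All 3 concern miR-379. Its 5p strand was at a log2 CPM of 9.77 in ethanol rat 3, against 9.47 in the next highest and 9.35 in the lowest ethanol rat, so that this gap made up 0.729 of the whole range. Its log2 ratio of 5p to 3p was 2.82 in vehicle rat 10, against 2.42 in the next highest vehicle rat, a gap of 0.838 of the range. The same ratio was 2.35 in ethanol rat 15, against 2.56 in the next lowest ethanol rat, a gap of 0.528. The 3p strand of this hairpin shared its reads with miR-411-3p, and its 5p strand had fractional estimates in 7 libraries. The part of divided reads in these values was not tested.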

How the results depend on the processing

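No paired analysis was possible because the groups share no animal numbers. Members called higher, 2 as reported, were 1 with library totals alone and 1 by DESeq2, and 0 to 3 when a library was left out (0 without vehicle rat 9, 1 without vehicle rat 19, 3 without vehicle rat 10). Members called lower, 1 as reported, ranged from 0 to 2 (0 without vehicle rat 10 or 20 or ethanol rat 3, 7 or 8, and 2 without vehicle rat 19), and those past an adjusted p of 0.05 stayed at 0. Arm ratios called, 1 as reported, ranged from 0 (without vehicle rat 9) to 3 (without vehicle rat 10), with 2 without vehicle rat 19. Without the 5 most abundant miRNAs in the total, the cluster's share was 2.61% in vehicle and 2.64% in ethanol rats. The median r of members was 0.30 with library totals alone, against 0.18. The call of miR-134-5p was lost with library totals alone (log2 fold change 0.27) and without vehicle rat 9 (0.28), and that of miR-380-5p by DESeq2 (0.45) and without vehicle rat 9 (0.40) or 19 (0.41). Left-out libraries kept the estimate of miR-154-5p between -0.53 and -0.35. The estimate of miR-379-5p rose to 0.20 without vehicle rat 10 and then passed the unadjusted threshold by edgeR. Among named members, signs turned only in values that passed no test. These were miR-300-3p with library totals alone (-0.0152) and over left-out libraries (-0.0138 to 0.0629), miR-411-5p (-0.127 to 0.00719), miR-323-3p (-0.105 to 0.00605) and miR-409a-3p (-0.0407 to 0.0683). miR-409a-3p also turned with DESeq2-style size factors (0.00307), a stricter filter (0.0232), no filter (0.00341), filterByExpr (0.0158) and DESeq2 (0.00392). The median log2 fold change of members, -0.02 as reported, turned to 0.0120 with the stricter filter, 0.00169 with no filter and 0.00117 with filterByExpr, and ranged from -0.0356 to 0.0305 over left-out libraries, above 0 without vehicle rat 9, 10 or 20. The causes of these changes were not tested. For named members, 309 values kept their sign and their side of the unadjusted threshold. For counts and summaries, 119 values stayed equal, near in size or within their spread. Among these 119 are some listed above: the 3 members called higher without vehicle rat 10, the medians that turned sign and the median r of 0.30. Depth limits the low members: at under 10 CPM the median standard error of a log2 fold change was 0.28.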

Other observations

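The span from Mir379 to Mir410 holds further miRNAs that the choice by number left out. miR-6331 was at 106 CPM, miR-667-3p at 85.0 CPM and miR-666-5p at 35.1 CPM, in the range of the middle members, and miR-666-3p was at 14.5 CPM, miR-544-3p at 3.26 CPM and miR-667-5p at 2.27 CPM. None of these 6 had an unadjusted p under 0.05 for ethanol by edgeR, with log2 fold changes of -0.08 for miR-6331, -0.05 for miR-667-3p, 0.08 for miR-666-5p, -0.15 for miR-666-3p, 0.08 for miR-544-3p and -0.54 for miR-667-5p. Few reads were listed for the minus strand genes of the span. The strands miR-3579, miR-3595, miR-3576, miR-3592 and miR-3578 had 0 reads in each of the 12 libraries, as did the members miR-409b and miR-299b-3p, while miR-299b-5p had the reads divided with miR-299a-5p.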
